A study of Mus musculus with 4 samples.

Results

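The type I interferon response genes are a list of 37 genes that cells switch on after sensing interferon, all 37 of which were among the 16152 genes of the deposited matrices. They were taken by name and followed across blood cell lineages and across 4 single-cell libraries of blood that the labels give as mouse. The mice are labelled as wild-type C57BL/6J animals of 6 to 8 weeks. Acute pancreatitis was induced with 7 intraperitoneal injections of cerulein, a peptide that overstimulates the exocrine pancreas, and mononuclear cells were isolated from blood on a density gradient. One library came from control mice (0 h) and 1 each from mice 12 h, 24 h and 96 h into the disease. The sample labels give 96 h for the last library, while the series' design text gives 168 h. The sources used here do not say how many mice entered a library.

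Type I interferons bind the receptor pair IFNAR1 and IFNAR2, whose kinases JAK1 and TYK2 phosphorylate STAT2. STAT2 and IRF9 are parts of a complex that binds interferon response elements in promoters and turns on genes that sense viral RNA, degrade it, block its translation or tag proteins with the ubiquitin-like protein ISG15. Blood monocytes, above all the patrolling nonclassical kind, carry a steady low level of these transcripts without infection, and lymphocytes carry a subset of them. By role, the list held 3 genes of the signal relay, 4 sensors of foreign nucleic acid, 10 effectors against viral RNA and translation, 10 other antiviral effectors, 8 genes of ubiquitin, ISG15 and ADP-ribose modification, and 2 other induced proteins.

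To look for the promoter element that the complex is known to bind, the motif GAAA, then any 2 bases, then GAAA was searched on both strands in RefSeq promoter windows of GRCm38.p6, from 250 bases before to 50 after each annotated start. Of the 37 members, 27 were matched by symbol, and 11 of these (40.7%) held the motif, against 3.99% of all 27025 genes with a window. A match shows only that these letters are present. Matches overlap one another in Isg15 and Oas1a. One stretch is given for each of 3 members that recur below, on the strand of the gene, with motif letters in capitals: Isg15 at chr4:156200871-156200900 on the minus strand, Ifit3 at chr19:34583397-34583426 on the plus strand, and Oas1a at chr5:120907523-120907552 on the minus strand.
Isg15: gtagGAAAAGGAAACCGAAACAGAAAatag
Ifit3: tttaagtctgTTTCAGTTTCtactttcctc
Oas1a: ttctcggGAAATGGAAACTGAAAatctact
The gene names in the matrices mix mouse and rat forms (28 begin with RT1-, the rat major histocompatibility prefix, and 0 with H2-, the mouse one, while 1691 begin with AABR07 and 238 with RGD, both rat forms). The sources used here do not say how these names arose, and whether the reads were matched to a rat annotation was not tested. The windows describe mouse genes of the same symbol.

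Lineages were gated on marker transcripts, since the deposited files name no cell types. After filtering and removal of doublets, 10464 to 12932 cells per library remained, and 93.1% to 95.4% of them fell into a monocyte, B cell, T cell or natural killer (NK) gate. Markers of other lineages were present at lower levels than in their own gate, which the gates partly impose, since they use these same markers. The values that follow describe the gates and are no measure of purity. In monocyte-gated cells the summed B cell gate markers lay between 31.1 and 78.1 counts per 1000000 UMIs (CPM, the unit of every level below, taken over all cells of a gate), against 4052 to 4861 CPM in B cell-gated cells. NK markers were at 315 to 447 CPM in T cell-gated cells, against 8528 to 10241 CPM in NK-gated cells. The neutrophil transcript S100a8 moved with time in every gate and was 9.71, 763, 545 and 30.9 CPM in B cell-gated cells at 0, 12, 24 and 96 h. The barcode list of the 24 h library was identical to that of the 12 h library, although no cell had the same counts in both (0 pairs), and the control list held 4340 barcodes for 14569 cells. In the 4 gates, counts at 24 h are therefore also given against 12 h and 96 h; subsets were compared with control only. Each time has 1 library, so no test was possible and intervals (95%) cover counting error only. A member was counted as measured with at least 50 UMIs over the 2 libraries compared, and as higher or lower at 1.5-fold.

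The main feature of the list was a low point at 24 h, deepest in monocytes. Summed over all 37 members, monocyte-gated cells held 1715, 1576, 697 and 1621 CPM at 0, 12, 24 and 96 h. The 24 h library stood apart below the other 3. B cell-gated cells held 1064, 1138, 761 and 1265 CPM, T cell-gated cells 773, 884, 628 and 779 CPM, and NK-gated cells 1103, 1139, 865 and 1190 CPM at the same times. In all 4 gates the 24 h library was the lowest. Monocytes were first and T cells last at 0 h. At 24 h T cells were still last, but NK-gated cells were highest and monocyte-gated cells came after B cells. The make-up of the monocyte gate differed too, the share of classical monocytes being 11.9% at 0 h and 37.4% at 24 h. Nonclassical monocytes alone held 963 CPM at 24 h, above the NK gate, and classical ones 484 CPM. What the mix contributed to the change of rank was not tested.

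In monocyte-gated cells at 24 h, 27 of 34 measured members were at least 1.5-fold lower than in the control library, against 14.8% of the 9466 genes measured in the same comparison, and 1 was higher, against 6.99%. The median log2 ratio of the members was -1.34, and that of all genes -0.14. Of the 34 measured, 33 lay below the control level. Against the 12 h library 27 of 35 members were lower (15.9% of all genes), and against the 96 h library 29 of 35 were (9.09% of all genes), so the 24 h library was the low one in each comparison. Ifit1, Rsad2 and Ddx58 had too few UMIs to be counted. The monocyte-gated cells of different libraries lay largely in different clusters when all cells were clustered on variable genes. Cluster 0 held 3251 control cells and 144 cells of 24 h, cluster 1 held 2565 cells of 12 h, and clusters 16 and 19 held 8 and 39 control cells against 1808 and 1939 cells of 24 h. With 1 library per time, a cell state and a library cannot be told apart here, and the values above compare the whole gate.

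**Figure D1:**
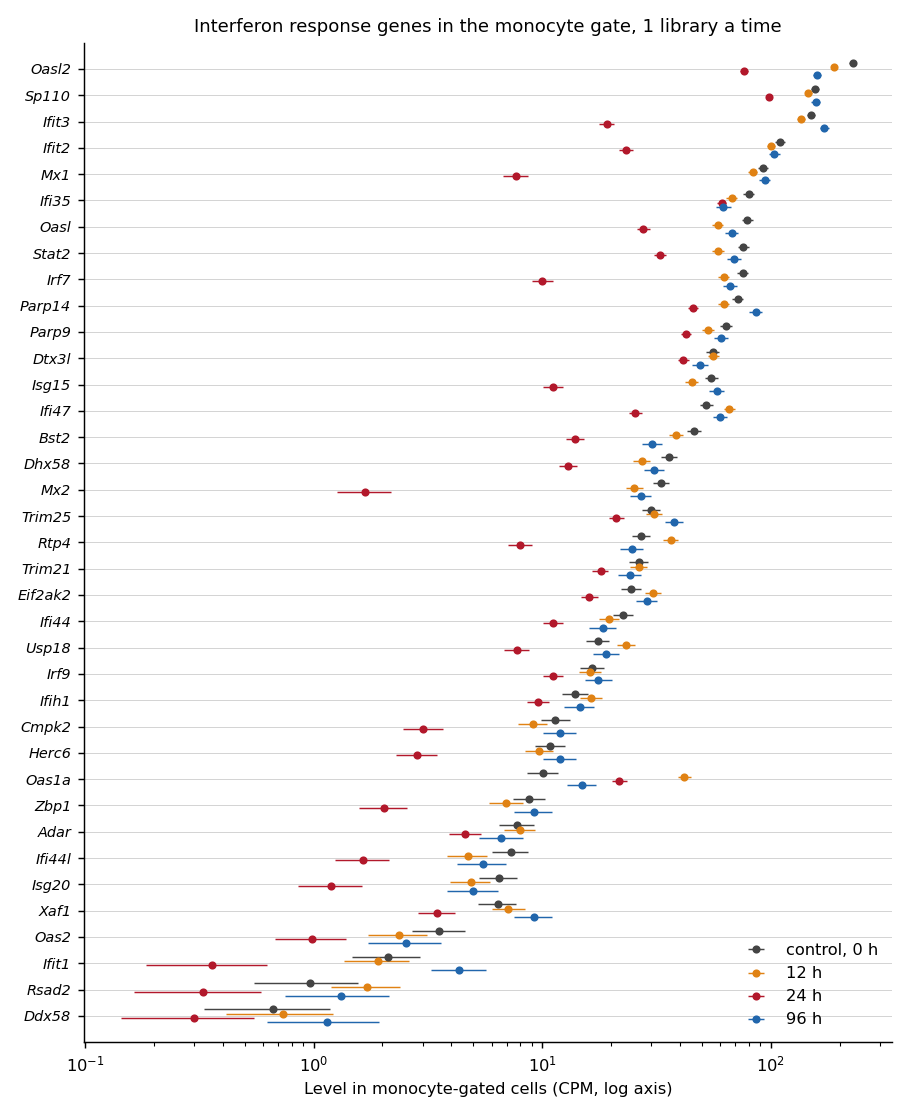
Level of each of the 37 genes in monocyte-gated cells (CPM, log axis), 1 point per library with its 95% Poisson interval, ordered by the control level. The 24 h points lie left of the other 3 for nearly all genes, while Oas1a lies to the right of its control point.

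The 3 lowest ratios in monocytes at 24 h were those of Mx2, Mx1 and Ifit3. Mx2, a dynamin-like GTPase, was at 33.2, 25.3, 1.67 and 26.9 CPM in time order. The 24 h library alone was near the floor, at 0.0504 of control (0.0376 to 0.0665). Mx1, its paralogue, was at 92.3, 83.4, 7.64 and 93.9 CPM, a 24 h ratio of 0.0827 (0.0722 to 0.0945). Ifit3, grouped here with the effectors against viral RNA and translation, was at 150, 136, 19.2 and 171 CPM, a ratio of 0.127 (0.117 to 0.139). For both genes the levels at 0, 12 and 96 h lay within a narrow band, and the 24 h interval did not reach it.

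Every role took part in monocytes at 24 h, to unequal depth. Of the signal relay, Irf7, the transcription factor that amplifies interferon production, was at 75.4, 62.3, 10.0 and 66.6 CPM (24 h ratio 0.133, 0.118 to 0.150). Stat2 was at 75.9, 58.7, 32.7 and 69.1 CPM, whereas Irf9 was at 16.5, 16.2, 11.1 and 17.6 CPM and stayed within 1.5-fold. The measured sensors had a median log2 ratio of -1.47. Dhx58 (LGP2) was at 35.9, 27.3, 13 and 30.8 CPM, and Zbp1, a sensor of Z-form nucleic acid, at 8.78, 6.97, 2.03 and 9.17 CPM. Ifih1 (MDA5), at 14.0, 16.3, 9.61 and 14.6 CPM, moved least of the 3.

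Among effectors against viral RNA, 8 of 9 measured genes were lower at 24 h, with a median log2 ratio of -1.57. Beside this and the counts that follow, 14.8% of all genes were lower, with an all-gene median of -0.14. Oasl2, an oligoadenylate synthetase-like protein, was at 228, 190, 76.6 and 160 CPM (24 h ratio 0.336, 0.320 to 0.353). The other antiviral effectors were lower in 9 of 9, with a median of -1.76, and included Bst2 (tetherin, which holds budding virions at the membrane) at 46.1, 38.4, 14.0 and 30.3 CPM. The modifiers were lower in 5 of 8, with a median of -0.61. Isg15 itself was at 54.8, 45.2, 11.2 and 58.0 CPM and Usp18, the protease that removes it and damps receptor signalling, at 17.5, 23.4, 7.73 and 19.1 CPM. The ligases Trim25, Trim21 and Dtx3l stayed within 1.5-fold. Sp110, a nuclear body protein and the member with the most UMIs over all libraries, was at 156, 146, 98.2 and 157 CPM, and Ifi35, the other protein of its role, at 80.1, 67.5, 61.1 and 62.1 CPM.

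Classical and nonclassical monocytes were separated by 3 and 5 of their markers, because the classical share of monocyte-gated cells was 11.9% in the control library and 28.2%, 37.4% and 35.5% later. The low point was present in both. Classical cells held 1038, 907, 484 and 961 CPM of the list, and nonclassical cells 1904, 2181, 963 and 2347 CPM. At 24 h 20 of 29 measured members were lower in classical cells (12.3% of all genes) and 1 was higher (8.5%), for a median log2 ratio of -1.29. In nonclassical cells 20 of 34 were lower (7.86%) and 1 was higher (4.95%), for a median of -0.97. Mx2 was at 25.4, 7.77, 0.650 and 15 CPM in classical cells and at 35.2, 41.5, 2.95 and 40.2 CPM in nonclassical cells. Depth also moved: the median cell of the monocyte gate held 3673 UMIs at 0 h and 6085 at 24 h, and thinned to equal depth, below, the 24 h cells again held the fewest member UMIs.

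The other times showed smaller shifts, with 7 of 30 members lower (10.8% of all genes) and 1 higher (22.4%) in classical cells at 12 h. Ifit3 there was at 57.5 CPM against 39.3 in the control library, and Mx2 was lower (ratio 0.307, 0.222 to 0.422). In nonclassical cells no member of 35 was 1.5-fold lower at 12 h (4.04% of all genes) and 3 were higher (7.42%). At 96 h 7 of 35 members were higher in nonclassical cells (3.1% of all genes) and 0 were lower (3.22%). The 7 were Isg15, Ifit1, Ifit3, Oas1a, Mx1, Herc6 and Zbp1. Ifit3 there was at 181, 204, 34.9 and 312 CPM, a 96 h ratio of 1.72 (1.61 to 1.83). Classical cells had 1 of 30 members higher at 96 h (4.08%) and 4 lower (2.99%). In the whole monocyte gate, 1 of 35 members was higher (5.22%) and 1 lower (5.38%) at 96 h. At 12 h 2 of 36 were higher (11.9%), Oas1a and Rsad2, and 2 were lower (7.49%), Oas2 and Ifi44l, a count that ranged from 0 to 20 over the alternatives.

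Oas1a went against the list. This oligoadenylate synthetase makes the second messenger that activates RNase L. Monocyte-gated cells held 10.0, 41.9, 21.8 and 14.9 CPM of it in time order. All 3 pancreatitis libraries were above control, with ratios of 4.17 (3.53 to 4.95), 2.17 (1.83 to 2.58) and 1.48 (1.20 to 1.84). With a stricter cell filter the 24 h log2 ratio turned to -0.30. That filter kept 396 of 3887 monocyte-gated cells in the control library and 700 of 4470 at 24 h. Classical monocytes had the steepest course, 4.95, 58.4, 21.4 and 7.10 CPM, and nonclassical cells went from 11.6 to 27.1, 22.0 and 23.5 CPM. Oas1b, a gene of the same cluster that is not a member, had the list's shape instead, at 14.3, 10.4, 4.54 and 16.9 CPM in monocyte-gated cells. The sources used here do not say how reads were shared among these similar copies, so the split between them is uncertain.

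The highest Oas1a levels were in neutrophil-gated cells, few of which remain after a density gradient (4, 76, 88 and 15 cells in the 4 libraries). They held 315 CPM at 12 h (272 to 363) and 824 CPM at 24 h (751 to 903). S100a8, a neutrophil transcript also made by classical monocytes, was at 116, 7128, 1036 and 445 CPM in the monocyte gate, and so peaked in the same library as Oas1a. Its part in the Oas1a levels of other gates was not tested. Neutrophil-gated cells also held 1458 and 1875 CPM of monocyte gate markers at 12 and 24 h, against 2501 and 3077 in the monocyte gate. Ifit3 in neutrophil-gated cells was 109 CPM (84.3 to 139) at 12 h and 198 CPM (162 to 238) at 24 h, with the 24 h library the higher of the 2, opposite to monocytes. The list as a whole summed to 1398 and 1921 CPM there, of which Oas1a alone made up 315 and 824 CPM. The difference between these sums was thus mostly Oas1a. Control neutrophils were too few for a comparison.

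**Figure D2:**
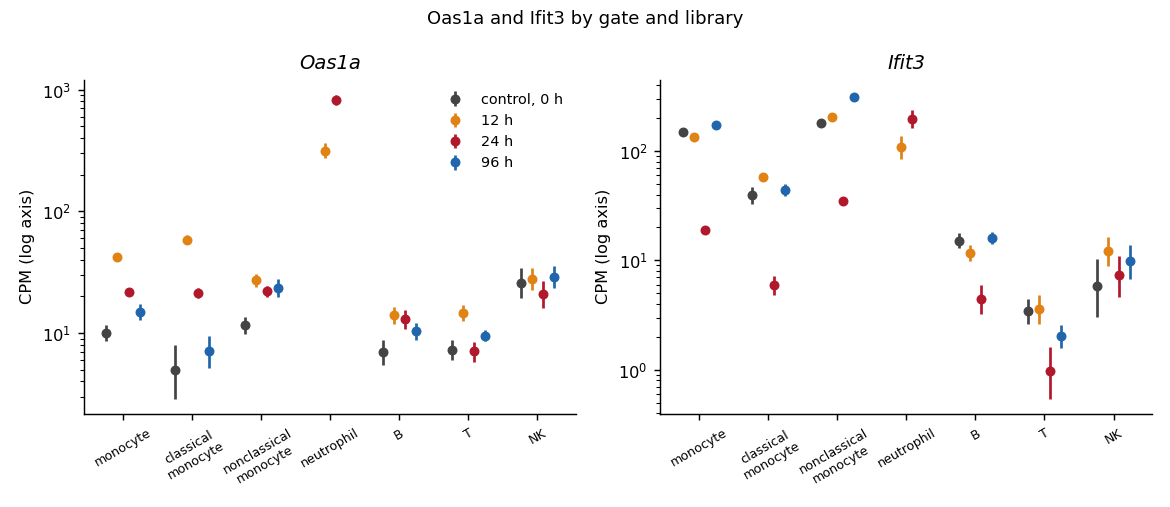
Levels of Oas1a and Ifit3 (CPM, log axis) by gate and library, with 95% Poisson intervals; neutrophils are drawn only at 12 and 24 h, where the gate held over 50 cells. Oas1a is highest in neutrophils and above control in monocytes at 12 and 24 h, while Ifit3 is lowest at 24 h in monocyte, B and T gates.

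B cell-gated cells showed the 24 h low point at smaller depth. Of 32 measured members 13 were lower (4.83% of all genes) and 1 was higher (3.75%). The median log2 ratio was -0.50 against -0.0085 for all genes, and the count of lower members ranged from 9 to 21 over the alternatives. Against 96 h, 21 of 34 were lower (5.2%), and against 12 h 15 of 32 (6.4%). Mx2 was at 45.8, 51.2, 12.2 and 70.5 CPM, a 24 h ratio of 0.267 (0.217 to 0.326). Ifit3 was at 15.1, 11.8, 4.48 and 16.1 CPM and Usp18 at 6.35, 5.60, 1.69 and 6.88 CPM. Stat2, which was highest in B cells among the 4 gates in every library, was at 119, 137, 97.0 and 131 CPM and stayed within 1.5-fold.

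The exception was again Oas1a, at 7.00, 14.0, 12.9 and 10.3 CPM in B cell-gated cells. The immunity-related GTPase Ifi47 was at 12.3, 21.7, 16 and 13.6 CPM and thus highest at 12 h. Those were the 2 of 34 members that were higher in B cells at 12 h (6.84% of all genes), and 0 were lower (3.43%). At 96 h 4 of 34 were higher (2.88%) and 0 lower (3.28%): Irf7, Mx2, Rsad2 and Zbp1. Mx2 had a 96 h ratio of 1.54 (1.38 to 1.71) and Zbp1, at 10.2, 13.7, 7.17 and 17.1 CPM, one of 1.68 (1.34 to 2.12). Oasl2 was at 59.4, 51.6, 24.6 and 44.9 CPM and had not returned to control by 96 h (0.756, 0.678 to 0.842).

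In T cell-gated cells the 12 h library was the high one. Of 33 measured members 7 were higher at 12 h (8.87% of all genes) and 1 was lower (3.02%). Ifi47 was at 21.3, 51.4, 33.4 and 23.8 CPM, the 12 h ratio being 2.41 (2.11 to 2.76) and the 24 h ratio 1.57 (1.37 to 1.81). Rtp4, a receptor transporter with antiviral activity, was at 5.66, 14.0, 2.78 and 9.09 CPM, high at 12 h and low at 24 h. At 24 h 13 of 33 members were lower (8.45% of all genes) and Ifi47 alone was higher (2.95%), with a median log2 ratio of -0.34 against -0.12 for all genes. Against 12 h, 20 of 33 were lower (14.3%), and against 96 h 11 of 33 (6.25%). The count of 13 ranged from 4 to 20 over the alternatives. Oasl2 was at 45.1, 28.3, 16.7 and 20.8 CPM, lower than control in each pancreatitis library. It was 1 of 2 members lower at 96 h (4.24%), with Ifit3, while Rtp4 alone was higher (2.16%).

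T cells were also divided into those with only Cd4 and those with only Cd8a or Cd8b transcripts. At 24 h 5 of 15 measured members were lower in CD4 cells (14.3% of all genes) and 0 higher (2.6%), and in CD8 cells 2 of 25 were lower (6.12%) and 1 was higher (4.91%). At 12 h 8 of 31 were higher in CD8 cells (9.75%) and 1 lower (2.82%), and in CD4 cells 1 of 15 was higher (7.08%) and 2 were lower (5.24%). At 96 h 7 of 32 were higher in CD8 cells (3.34%) and 2 lower (3.44%), and in CD4 cells 0 of 17 were higher (3.54%) and 4 lower (6.93%). Oasl2 was lower in both at 24 h. With 186 to 494 CD4 cells per library, 20 to 22 members could not be measured in them, so the 2 counts cover different genes.

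NK-gated cells were few (406 to 819 per library). At 24 h 6 of 21 measured members were lower (4.71% of all genes) and 0 were higher (6.88%), the median log2 ratio being -0.30, and the count ranged from 2 to 12 over the alternatives. Against 12 h, 8 of 27 were lower (8.25%), and against 96 h 11 of 27 (6.29%). Oasl2, at 133, 122, 84.8 and 111 CPM, had a ratio of 0.639 (0.536 to 0.761), and Mx1, at 115, 111, 73.5 and 153 CPM, one of 0.638 (0.529 to 0.770). Isg15 was at 39.7, 46.6, 50.9 and 51.4 CPM, so the 24 h library was not low for it, in contrast to monocytes. At 12 h 2 of 27 members were higher (7.52%) and 1 lower (2.87%). At 96 h 1 of 26 was higher (5.75%) and 0 lower (2.84%).

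**Figure D3:**
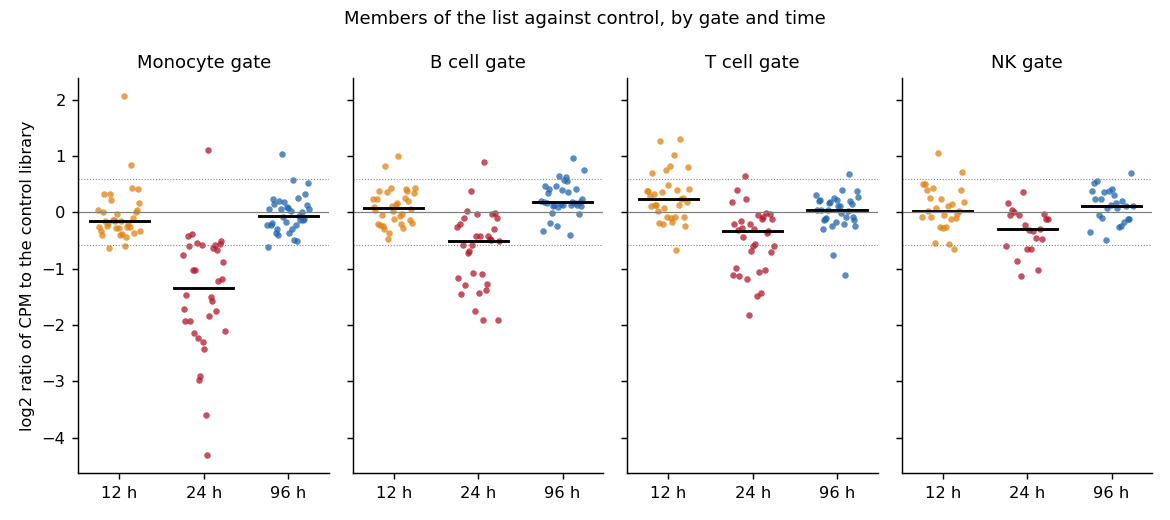
Log2 ratio of CPM to the control library for each measured member (points) in 4 gates at 12, 24 and 96 h; black bars are medians over members and dotted lines mark 1.5-fold. The 24 h medians are -1.34, -0.50, -0.34 and -0.30 in monocyte, B, T and NK gates; the 3 times share the control library.

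The 24 h library was the only one in which most members lay on the same side in all 4 gates. Of 21 members measured in all 4 gates at 24 h, 15 were below control in every gate and 0 above in every gate, against 25.6% and 13.3% of the 5965 genes measured in all 4. At 12 h these counts were 3 and 3 of 27 (9.01% and 25.5% of all genes), and at 96 h 3 and 6 of 26 (14.5% and 17.6%). The gates share the control library and the library of each time. Oasl2 and Dhx58 were at least 1.5-fold lower in all 4 gates at 24 h, as were 0.436% of all genes. Over all cells, whatever their gate, every one of the 37 could be measured: 23 were lower (12.2% of all genes) and 1 higher (7.63%) at 24 h, 0 lower (3.94%) and 3 higher (10.3%) at 12 h, and 7 lower (8.74%) and 1 higher (3.56%) at 96 h. Those counts also move with the mix of lineages.

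Members differed in the lineage that carried them. Monocyte-gated cells had the highest level of 20, 19, 16 and 20 of the 37 members at 0, 12, 24 and 96 h, B cells of 8, 10, 9 and 11, NK cells of 6, 6, 11 and 5, and T cells of 3, 2, 1 and 1. Counting only members whose interval lay apart from that of the next gate, these numbers were 14, 15, 7 and 12 for monocytes, 4, 5, 7 and 6 for B cells, 2, 2, 3 and 4 for NK cells and 0 each time for T cells. Ifit2, Ifit3, Usp18 and Bst2 were highest in monocytes, and Mx2, Stat2 and Trim25 in B cells, with intervals apart in all 4 libraries. Rsad2, Rtp4 and Adar were also highest in B cells each time, and Ddx58 (RIG-I) and Trim21 in NK cells, but their intervals overlapped those of the next gate in at least 2 libraries. Cells with at least 2 UMIs of Siglech, a transcript of plasmacytoid dendritic cells, numbered 30 to 44 per library and summed to 699, 990, 575 and 709 CPM of the list. Too few for ratios, they were also lowest at 24 h. That interval (490 to 672) overlapped those at 0 h (616 to 789) and 96 h (621 to 806), though not that at 12 h (894 to 1094).

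To see whether a level came from few strong cells or from all, every cell was thinned to 2000 UMIs and its member UMIs were summed. Of 3887, 3457, 4470 and 1936 monocyte-gated cells, 114, 21, 62 and 18 were shallower and left out. The mean monocyte held 3.67, 3.96, 1.65 and 3.83 member UMIs at 0, 12, 24 and 96 h, and the median cell 3, 3, 1 and 2.5. The 24 h library was low both in the middle and at the top of the distribution: cells with at least 10 member UMIs made up 7.24%, 8.38%, 0.363% and 9.23%. The variance was 4.60, 4.12, 1.75 and 4.76 times the mean, and so was also lowest at 24 h.

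**Figure D4:**
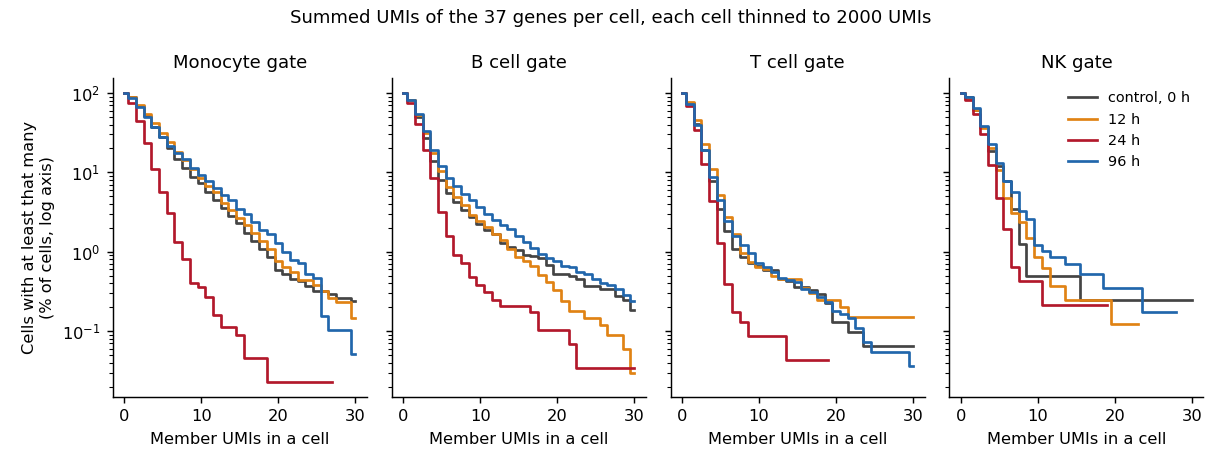
Percent of cells (log axis) with at least the given number of summed member UMIs, by gate and library, each cell thinned to 2000 UMIs. The 24 h curve falls fastest in monocyte, B and T gates, and the NK curves rest on 404 to 807 cells.

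Over the whole monocyte gate, the loss was not only a loss of strong cells. Cells with at least 10 member UMIs held 28.2%, 29.7%, 2.86% and 34.9% of all member UMIs. Among the remaining cells the mean was 2.84, 3.04, 1.61 and 2.75 UMIs, so the 24 h library was also lowest there. The cut at 10 was a position in a continuous range, with 59 control cells at 9 and 61 at 10 UMIs. Without the 5% of cells with the largest member share in each library, the 24 h median log2 ratio was -1.30. By gene, the share of thinned monocytes with an Ifit3 UMI was 18.7%, 22.1%, 4.97% and 23.4%, and before thinning 26.3%, 32.8%, 8.93% and 34.9%. T cells, in which Ifit3 is low, gave 0.721%, 0.601%, 0.131% and 0.453% after thinning, at median depths of 4985 to 6535.5 UMIs against 3673 to 6085 in monocytes. For Mx1 the monocyte shares were 12.7%, 13.8%, 1.93% and 14.7%, and positive cells held 1.57, 1.53, 1.13 and 1.62 UMIs each.

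At a fixed cut, B and T cells had a smaller set of strong cells than monocytes. The list was divided into 18 genes used to sort cells and 19 others to read out. The first 18 were Isg15, Ifit1, Ifit2, Ifit3, Irf7, Oas1a, Oasl, Oasl2, Mx1, Rsad2, Usp18, Rtp4, Ifi44, Cmpk2, Zbp1, Bst2, Xaf1 and Ifi47. Among control B cells, 63.5% had no UMI of the first 18 and held 1.21 UMIs (1.16 to 1.25) of the other 19. The 55 cells (1.68%) with 6 or more of the first 18 held 8.33 UMIs (7.58 to 9.13) of the other 19. Among control T cells 19 (0.623%) were in that top class, with 7.37 UMIs (6.20 to 8.70) against 0.77 in cells with none. In control monocytes the steps were gradual, at 0.98, 1.31, 1.89 and 3.13 UMIs with 0, 1 to 2, 3 to 5 and 6 or more of the first 18, and the top class held 364 cells (9.65%). Cells high for one set of these genes were thus high for the other in all 3 gates. The step was steeper in lymphocytes, but the same cut took 9.65% of monocytes, 1.68% of B cells and 0.623% of T cells. Ifit2, Ifit3, Usp18 and Bst2, highest in monocytes, were sorting genes, and Mx2, Stat2 and Trim25, highest in B cells, were readout genes. What this contributed to the contrast between gates was not tested.

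**Figure D5:**
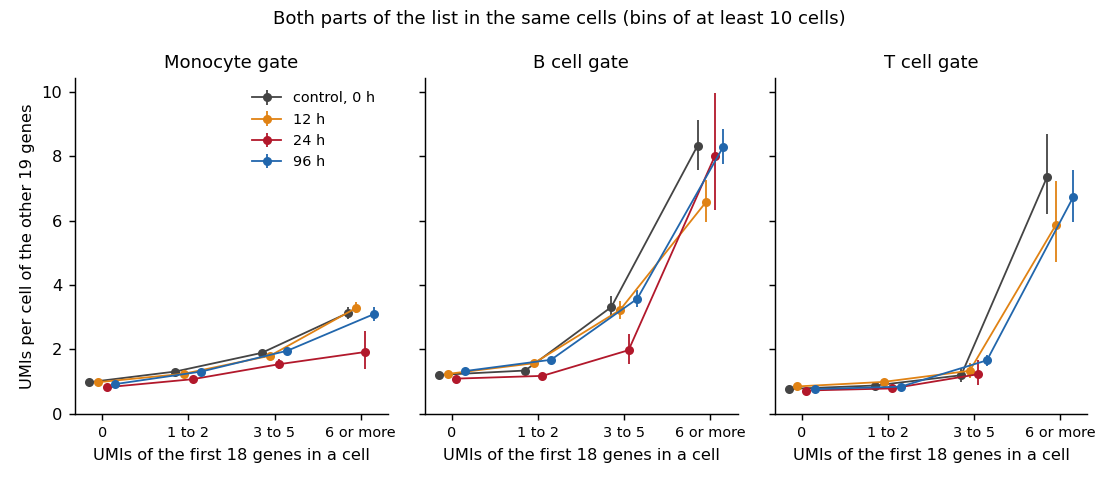
UMIs per cell of 19 members (95% Poisson interval) in cells grouped by their UMIs of the other 18, by gate and library, each cell thinned to 2000 UMIs; classes under 10 cells are not drawn. B and T cells of the top class reach 5.87 to 8.33 UMIs where drawn, and monocytes of the top class 1.92 to 3.29.

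The number of such lymphocytes was lowest at 24 h. Their content was read only in cells above a fixed cut, so it could vary less freely than their number. Top-class B cells numbered 55, 60, 10 and 109 (1.68%, 1.78%, 0.347% and 2.61%) at 0, 12, 24 and 96 h, and held 8.33, 6.58, 8.00 and 8.30 UMIs of the other 19. The 10 cells at 24 h had an interval of 6.34 to 9.96, which overlaps those of the other 3 libraries. The intervals at 0 h (7.58 to 9.13) and 12 h (5.95 to 7.27) lay apart from each other. Top-class T cells numbered 19, 15, 2 and 40 (0.623%, 0.751%, 0.0876% and 0.724%), and the 2 at 24 h are too few to compare content. Among top-class monocytes both number and content were low at 24 h, with 24 cells (0.544%) at 1.92 UMIs (1.40 to 2.56) against 3.13, 3.29 and 3.09 in the other libraries.

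In control B cells the readout gene that set the top class most apart was Mx2, at 2.33 UMIs per cell (1.94 to 2.77) against 0.0526 (0.0449 to 0.0611) in the others. Dhx58 was at 0.418 against 0.0264 and Herc6, an ISG15 ligase in the mouse, at 0.436 against 0.0215. Stat2, at 0.636 against 0.230, and Sp110, at 0.927 against 0.234, were less distinct. These B cells were of ordinary depth, with a median of 2958 UMIs against 2805. They held 5030 CPM of B cell gate markers against 4019, and 62.7 CPM of monocyte gate markers against 76.6. Both classes had passed the B cell gate and failed the monocyte gate, so the gating constrained these marker levels. At 12 h S100a8 was at 3033 CPM in the 60 top-class cells against 719 in the rest, and at 24 h at 2067 CPM in the 10 cells against 539. That difference was absent in the control library, at 5.70 against 9.51 CPM, and its part in the later classes was not tested.

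With cells of 10 or more member UMIs left out, a cut unlike the top class, the 24 h library was lower too, by a smaller amount. Below 10 member UMIs, B cells held a mean of 1.79, 1.94, 1.46 and 1.99 UMIs, and T cells 1.44, 1.61, 1.20 and 1.45. Cells with 10 or more held 17.8%, 16%, 4.16% and 23.6% of the member UMIs of B cells. Without the 5% of cells with the largest member share, the 24 h median log2 ratio in B cells was -0.35.

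The type I receptor chains stayed near control in monocytes. In B cell-gated cells Ifnar2 was at 11.4, 7.19, 10.1 and 10.4 CPM, more than 1.5-fold lower at 12 h. Ifnar1 was at 106, 82.9, 80.7 and 107 CPM there. In monocyte-gated cells Ifnar1 was at 142, 111, 133 and 129 CPM and Ifnar2 at 37.4, 37.3, 30.1 and 34.3 CPM, all within 1.5-fold of control. Both chains of the interferon gamma receptor were highest at 24 h, Ifngr1 at 331, 447, 525 and 446 CPM and Ifngr2 at 121, 129, 195 and 129 CPM. Of the signal carriers, Irf1, a transcription factor shared with the interferon gamma response, was at 226, 68.2, 98.0 and 167 CPM, and so was lowest at 12 h, earlier than the members.

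Of the inhibitors, Socs3, which blocks cytokine receptor kinases, was at 0.361, 3.53, 5.52 and 1.06 CPM in monocytes and at 3.14, 10.2, 25.4 and 10.1 CPM in T cells. It was highest at 24 h in both, with ratios of 15.3 (6.90 to 42.2) on few control UMIs and 8.11 (6.04 to 11.1). Socs1 was at 3.31, 1.28, 1.43 and 2.37 CPM in monocytes. Among the sensors and adaptors in monocytes, Tlr9, the DNA receptor of endosomes, had the lowest 24 h ratio, at 2.41, 1.52, 0.657 and 0.983 CPM. Tmem173 (STING) had the highest, at 7.94, 18.5, 10.3 and 15.6 CPM.

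A pair of lists of related targets were also lower in monocytes at 24 h. Of 16 measured type II interferon genes 11 were lower and 0 were higher (median log2 ratio -0.88), against 14.8% and 6.99% of all genes and an all-gene median of -0.14. Their time course differed for the chemokines: Cxcl9 was at 3.37, 0.196, 0.477 and 0.901 CPM and Cxcl10 at 26.3, 5.45, 11.0 and 5.16 CPM, below control at every time. Of 24 other interferon-stimulated genes 12 were lower and 1 higher, with a median of -0.66. Lgals3bp, a secreted glycoprotein, was at 41.7, 33.6, 9.55 and 40.9 CPM, and Lgals9 (galectin-9) at 8.84, 20.4, 15.9 and 18.3 CPM. In B cells 1 of 15 type II genes and 1 of 20 other genes were lower at 24 h, and in T cells 1 of 14 and 2 of 20, which is near the 4.83% and 8.45% of all genes. Of the interferon ligands listed, Ifng had 5 to 17 UMIs and Ifnk 0 to 2 UMIs in a whole library, so neither could be followed at this depth.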

How the data were processed

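The authors deposited 1 matrix of UMI counts per library, unnormalized, made with Cell Ranger, Seurat and mm10 per the submitters' processing notes; no versions are stated there. Columns were used as cells, since barcode lists of the control and 24 h libraries could not name them. Cells under 200 genes or over 10% mitochondrial UMIs were dropped; Scrublet (scanpy 1.11.5) removed 3.95% to 5.52% as doublets. Total depth used was 48617344 to 69733792 UMIs per library.

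Gates asked for at least 3 UMIs of 7 B cell markers, 2 of 5 T cell markers, 4 of 8 NK markers, 3 of 7 monocyte markers or 3 of 5 neutrophil markers, over at least 2 markers (3 for NK). Cells passing more than 1 gate were left out, except that T cells could pass the NK gate, neutrophils the monocyte gate, and Siglech-bearing cells the B or myeloid gates. Lyz2 was not used, being present in nearly all cells. These thresholds were set after the data were seen. UMIs were summed per gate and scaled to CPM. Levels have exact Poisson, ratios exact conditional binomial and shares Clopper-Pearson intervals (95%). Comparisons needed at least 50 cells in both libraries. The ratio code was checked on simulated counts. Members and lists were chosen with earlier results of these data known.

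For each gate and time, the rule for named genes took the 3 highest and 3 lowest member ratios, ranked by the interval bound nearest 1. It added the 8 members with most UMIs, the extremes of each pathway list, and Ifnar1 and Ifnar2; 1 further gene of the rule is not reported here. Other members are named by role, and Oas1b, Cxcl10, Ifngr1 and S100a8 were chosen after their values were seen. Alternatives were scaling, UMI minimum, cell filter, doublets, gate, clusters, fold, thinning and leaving out strong cells; 24 h against 12 h and 96 h was added after seeing the data. Software was python 3.11.15, numpy 2.4.6, scipy 1.17.1 and pandas 2.3.3.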

Additional observations from a re-analysis of the deposited data

Results flagged for a closer look

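Ifi47, an immunity-related GTPase, differed in direction between gates at 24 h. Its log2 ratio to the control library was 0.65 in T cell-gated cells and -1.03 in monocyte-gated cells, with counting intervals that do not overlap. The difference was not tested, since each gate has 1 library per time.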

How the results depend on the processing

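The 24 h median log2 ratio was below 0 under every alternative run, from -1.47 to -1.10 in monocytes, -0.77 to -0.35 in B cells, -0.63 to -0.22 in T cells and -0.51 to -0.18 in NK cells. Counts of members lower at 24 h ranged from 20 to 30 in monocytes (27 as reported). In B cells the count of 13 became 21 against the 96 h library. In T cells 13 became 4 with at least 200 UMIs asked, 8 at 2-fold and 20 against the 12 h library. In NK cells 6 became 12 with at least 20 UMIs asked, 2 with 200, 2 at 2-fold and 11 against the 96 h library. Asking for 200 UMIs leaves fewer members to count, and the causes of these changes were not tested. Except against 12 h and 96 h, the share of all genes under these settings is not given. The counts and ranges over the alternatives therefore cannot be set against a background. Counts at 12 and 96 h were small and ranged from 0 to 8, except for lower members in monocytes at 12 h (2 as reported), which ranged from 0 to 20.

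The 12 h monocyte median of -0.15 became -0.76 under the stricter cell filter (500 genes, 5% mitochondrial UMIs), -0.27 with clusters and 0.089 as a mean over cells, so its direction is not settled. Oas1a at 24 h in monocytes reversed to -0.30 under the stricter filter and was -0.95 against the 12 h library; in B cells it was -0.11 against 12 h, and Ifi47 in T cells -0.62. The stricter filter left too few B and NK cells, and kept 396, 924 and 700 monocyte-gated cells at 0, 12 and 24 h. Scaling by median of ratios shifted monocytes at 24 h by 0.138 and T cells by 0.118 (log2).

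The share of member UMIs in the top 10% of cells depended on thinning. For monocytes at 0, 12, 24 and 96 h it was 34.6%, 33.4%, 32.0% and 36.7%, and for B cells 38.3%, 36.4%, 31.8% and 40.5%. Thinned to 1000 UMIs, monocytes gave 37.4%, 35.1% and 38.5% at 0, 12 and 24 h, and B cells 42.4%, 41.4%, 38.6% and 43.8%. Unthinned, monocytes gave 30.9%, 27.2% and 32.8% at 12, 24 and 96 h, and B cells 38.7% and 41.7% at 12 and 96 h. No paired analysis was possible because each time has 1 library. Depth limits Ifit1, Rsad2, Ddx58 and Oas2, and NK cells.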
